A study of Homo sapiens with 16 samples.

Results

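The 8 genes described here are 4 members of the Schlafen family, *SLFN11*, *SLFN5*, *SLFN12* and *SLFN13*, and 4 ABC transporters that move drugs out of cells, *ABCB1*, *ABCC1*, *ABCC4* and *ABCG2*. They were chosen by gene symbol, as genes tied to how cells respond to PARP inhibitors, out of 60623 genes listed for each of 16 RNA-Seq libraries. All libraries came from MUTZ-3, a human AML cell line with inv(3), the rearrangement that places *EVI1* (listed as *MECOM*) under a foreign enhancer. In the PARPi experiment, cells were left untreated (0 h) or received the vehicle DMSO, olaparib at 10 µM or talazoparib at 1 µM and were harvested at 12, 24 or 48 h. In the knockdown experiment, cells carried a lentiviral pLKO.1 vector with a non-targeting control shRNA (NTC) or with shEVI1-2531 or shEVI1-2532, both directed against *EVI1*, and were harvested at day 3 or day 6. All transduced cells, NTC included, were selected with puromycin, and all cells grew with serum, GM-CSF and medium conditioned by another cell line. Each condition has 1 library, so no condition has a replicate. The error of a fitted effect therefore rests on how the time points or days of this 1 line depart from one another, with information shared across genes. The error of a single ratio rests on counting alone.

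PARP inhibitors trap PARP1 on DNA, and cells must then replicate past these lesions. *SLFN11* encodes a nuclear protein that is recruited to stressed replication forks and blocks them, and tumour cells without it tolerate PARP inhibitors and other DNA-damaging drugs better. Its relatives share the N-terminal Schlafen core and have other known roles. *SLFN5* encodes a nuclear protein induced by interferon, *SLFN12* a ribonuclease that is activated by small molecules which glue it to PDE3A, and *SLFN13* a ribonuclease that cuts transfer RNA. ABC transporters use ATP to export their substrates. *ABCB1* encodes P-glycoprotein, for which olaparib and talazoparib are substrates, *ABCG2* encodes BCRP, *ABCC1* encodes MRP1, an exporter of glutathione conjugates, and *ABCC4* encodes MRP4, an exporter of nucleotides and cyclic nucleotides.

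The 4 Schlafen genes lie in 1 cluster on chromosome 17, which spans 315 kb with *SLFN12L* and *SLFN14* (GRCh38 coordinates as the files give them). *SLFN5* (ENSG00000166750) runs from 35243071 to 35273655 on the plus strand. *SLFN11* (ENSG00000172716, 35350305 to 35373701), *SLFN12* (ENSG00000172123, 35411060 to 35433283) and *SLFN13* (ENSG00000154760, 35435096 to 35448837) are on the minus strand. The transporters are scattered, with *ABCB1* (ENSG00000085563) on chromosome 7 from 87503633 to 87713323, *ABCC1* (ENSG00000103222) on chromosome 16 from 15949577 to 16143074, *ABCC4* (ENSG00000125257) on chromosome 13 from 95019835 to 95301475 and *ABCG2* (ENSG00000118777) on chromosome 4 from 88090150 to 88231628. All of these except *ABCC1* are on the minus strand. *SLFN11* and *SLFN13* are the members whose reads can be confused, since 6.28% of the 100-base runs in *SLFN11* transcripts and 4.35% of those in *SLFN13* transcripts occur in both. *ABCB1* shares 0.384% of its runs, all with *ABCB4*, and the other 5 members share none. No gene that overlaps a member had more than 1 count in any library.

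RefSeq start sites on GRCh38.p14 were at hand for 5 of the 8 members, with none for *SLFN5*, *SLFN13* and *ABCC1*. The 300 bases around the start (250 before and 50 after) are shown for *SLFN11* and *SLFN12*, neighbours that were lower in the knockdown, and for *ABCC4*, which was not. This choice rests on values of the same data. *SLFN12* was tested in the knockdown only because of its counts with NTC, so only a fall could be called for it. The windows are chr17:35373572-35373871, chr17:35433125-35433424 and chr13:95301402-95301701, all on the minus strand and written 5′ to 3′ in the direction of the gene. Capitals mark matches on either strand to 5 short motifs, the ETS core CCGGAA (read as TTCCGG on the other strand), the interferon response core GAAANNGAA, the C/EBP motif TTGCNNAA, the antioxidant response motif TGACNNNGC and the GATA and EVI1 core AGATAA.
SLFN11: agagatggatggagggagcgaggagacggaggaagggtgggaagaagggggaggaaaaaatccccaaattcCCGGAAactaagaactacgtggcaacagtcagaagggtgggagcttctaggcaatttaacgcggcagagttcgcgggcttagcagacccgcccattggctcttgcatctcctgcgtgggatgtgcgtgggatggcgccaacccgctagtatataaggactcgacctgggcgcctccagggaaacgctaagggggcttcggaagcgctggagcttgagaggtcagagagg
SLFN12: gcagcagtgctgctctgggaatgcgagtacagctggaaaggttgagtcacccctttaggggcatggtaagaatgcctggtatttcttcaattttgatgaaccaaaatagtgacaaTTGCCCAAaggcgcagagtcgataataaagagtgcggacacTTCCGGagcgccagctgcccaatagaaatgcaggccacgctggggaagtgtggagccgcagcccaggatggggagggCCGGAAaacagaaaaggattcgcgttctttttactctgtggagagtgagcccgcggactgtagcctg
ABCC4: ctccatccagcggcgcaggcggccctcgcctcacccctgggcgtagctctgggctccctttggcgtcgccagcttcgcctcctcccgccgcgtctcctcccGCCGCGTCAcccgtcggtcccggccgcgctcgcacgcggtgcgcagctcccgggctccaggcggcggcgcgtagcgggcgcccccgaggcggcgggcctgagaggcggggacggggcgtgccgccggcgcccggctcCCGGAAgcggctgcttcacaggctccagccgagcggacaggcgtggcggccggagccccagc
The *SLFN11* window holds 1 ETS core on the strand of the gene, 179 bases before the start. The *SLFN12* window holds 2, at 17 bases before the start on the strand of the gene and at 94 bases before it on the other strand, and 1 C/EBP match. The *ABCC4* window also holds 1 ETS core, 12 bases before the start, and 1 antioxidant response match. No window of these 3 holds the interferon or the GATA and EVI1 core. Of the windows not shown, one of *ABCB1* holds the GATA and EVI1 core, 140 bases before the start, and one of *ABCG2* the interferon core, 84 bases before it. The AHR core GCGTG, which all 3 shown windows hold, and the SP1 motif GGGCGG, which that of *SLFN11* holds, were searched as well and are not marked. Of the 35116 promoter windows of the same length, 17.2% hold the ETS core, 10.5% the C/EBP motif, 13.3% the antioxidant response motif, 8.11% the interferon core and 10.3% the GATA and EVI1 core. These matches are a description of letters, and binding was not measured here.

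Library totals lay between 55999673 and 72681943 counts in the PARPi experiment and between 95523038 and 120716213 in the knockdown, and 3 counts, the limit that a count of 0 allows, stood for 0.0249 to 0.0536 CPM (CPM is the count relative to the library size after TMM scaling). The myeloid markers *PTPRC*, *CD33*, *SPI1* and *CEBPA* were at 54.7 CPM or more in every library. *MS4A1* of B cells and *HBA2* of erythroid cells had no count in any library, and the epithelial and stromal markers had at most 15 counts. Of the lymphoid markers, *CD79A* was at 9.33 to 16.7 CPM and *CD3E* at 1.19 to 7.80 CPM in the same libraries. *MECOM* had 40.6 CPM at day 3 and 37.2 CPM at day 6 with NTC, 13.2 and 17.5 CPM with shEVI1-2531, and 5.14 and 4.32 CPM with shEVI1-2532. *MECOM* was therefore lower in every library labelled shEVI1, and the fall was unequal between the shRNAs. These levels cannot show which shRNA a library carried. The 9 monocyte markers summed to 1054 to 1396 CPM with DMSO, and to 9736 CPM after olaparib and 16275 CPM after talazoparib for 48 h. In the knockdown their sum was at most 1490 CPM with NTC, at least 2401 CPM with shEVI1-2531 and at least 9529 CPM with shEVI1-2532. In both experiments the state of the cells thus moved with the groups, its part in the values of the 8 genes was not tested, and fewer cells of a type cannot be told apart from less RNA per cell.

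*ABCC1* and *ABCC4* were the most abundant of the 8 genes and *ABCG2* was close to absent. Levels per kilobase of exon had a median over the 16 libraries of 18.9 CPM for *ABCC1* (8.34 to 25.2) and 13.5 CPM for *ABCC4* (7.07 to 19.5). *SLFN11* followed with 6.66 CPM per kilobase (2.73 to 8.92), which made it by far the leading Schlafen gene. *SLFN13* had 0.348 (0.161 to 0.933), *SLFN5* 0.105 (0.0297 to 0.575), *SLFN12* 0.0251 (0.00599 to 0.150) and *ABCB1* 0.0224 CPM per kilobase (0.00392 to 0.0796). *ABCC4* was above *SLFN11*, and *SLFN11* above *SLFN13*, in 16 of 16 libraries. The order of the neighbours *ABCC1* and *ABCC4* held in 12 of 16, that of *SLFN13* and *SLFN5* in 11, that of *SLFN5* and *SLFN12* in 13 and that of *SLFN12* and *ABCB1* in 11, so these pairs overlap. The 2 experiments were scaled separately, which limits comparisons of levels between them.

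*ABCG2*, the BCRP exporter, was not measurable at this depth. Its count was 0 in the untreated library, 1, 0 and 0 with DMSO, 0, 1 and 0 after olaparib and 2, 3 and 3 after talazoparib at 12, 24 and 48 h. In the knockdown it was 2 and 0 with NTC, 0 and 0 with shEVI1-2531 and 0 and 1 with shEVI1-2532. All 16 values are at or under the limit of 3 counts, so no fold change is given, and the gene entered no test. The other 7 members were tested in both experiments.

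**Figure D1:**
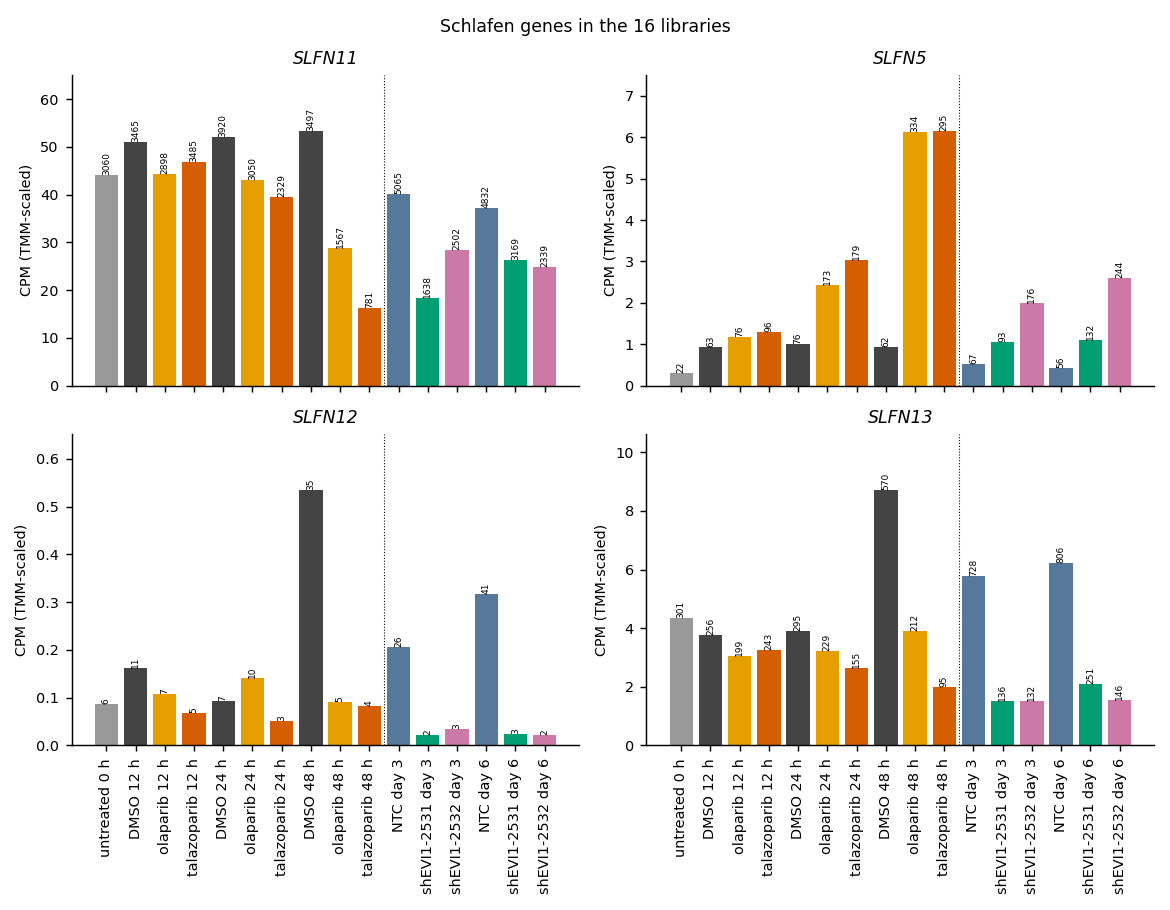
Level of each Schlafen gene in CPM after TMM scaling (vertical axis, from 0), with 1 bar per library and its raw count above it; the dotted line separates the PARPi from the knockdown experiment, which were scaled separately. *SLFN11* and *SLFN13* are lowest after 48 h of talazoparib in the PARPi experiment, *SLFN5* is highest after 48 h of either inhibitor, and the DMSO library of 48 h stands above the earlier DMSO libraries for *SLFN12* and *SLFN13*.

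The first comparison asks what PARP inhibition did to these genes. *SLFN11* was lower and *SLFN5* higher than with DMSO of the same hour in 6 of 6 pairs of libraries, and both differences grew with time until at 48 h *SLFN11* was at 53.9% of DMSO after olaparib and 30.5% after talazoparib, and *SLFN5* was 6.48-fold and 6.51-fold higher. *SLFN13* was lower in 6 of 6 pairs, and *ABCB1*, *ABCC1* and *ABCC4* were higher in 6 of 6, by less than 2 in fold. For *ABCB1*, which passed the filter on low counts through inhibitor libraries alone, a higher level was favoured before the comparison. *SLFN12* was lower in 5 of 6, a direction favoured by its passing the filter mainly through DMSO libraries. Of all 17218 genes tested, 36.7% had the same direction in the 6 pairs (18.3% higher, 18.4% lower), which share their DMSO libraries.

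*SLFN11* had 51.0, 52.0 and 53.4 CPM with DMSO at 12, 24 and 48 h. The olaparib libraries had 44.4, 43.0 and 28.8 CPM, and those of talazoparib 46.8, 39.5 and 16.3 CPM. The untreated library had 44.2 CPM. The DMSO libraries thus stayed within 1.05-fold of one another, and the 6 inhibitor libraries all lay under the lowest of them. So did the untreated library, which was also below the talazoparib library of 12 h. The log2 ratios were −0.20, −0.27 and −0.89 after olaparib at 12, 24 and 48 h, the last with a 95% counting interval of −0.98 to −0.80. After talazoparib they were −0.12, −0.40 and −1.71 (−1.82 to −1.60 for the last).

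*SLFN5* had 0.927, 1.01 and 0.946 CPM with DMSO, from 62 to 76 counts. The olaparib libraries had 1.16, 2.44 and 6.14 CPM, and those of talazoparib 1.29, 3.04 and 6.16 CPM, or 295 to 334 counts at 48 h. Here too the inhibitor libraries lay outside the range of DMSO, which was 1.09-fold. The untreated library, with 22 counts and 0.318 CPM, was lower than any library with DMSO, and the log2 ratio of this library to DMSO at 12 h was −1.55 (95% counting interval −2.32 to −0.82). The ratios to DMSO were 0.33, 1.27 and 2.70 after olaparib and 0.48, 1.59 and 2.70 after talazoparib on the log2 scale. The intervals at 48 h were 2.30 to 3.11 and 2.30 to 3.12.

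*SLFN13* and *SLFN12* differ from these genes in that DMSO itself changed. *SLFN13* had 3.77, 3.91 and 8.70 CPM with DMSO, 3.05, 3.23 and 3.89 CPM after olaparib and 3.26, 2.63 and 1.98 CPM after talazoparib. Between the DMSO libraries of 24 and 48 h its log2 ratio was 1.15 (0.95 to 1.36). Relative to DMSO at 48 h *SLFN13* was thus at 44.8% after olaparib, but its level equalled that of the earlier DMSO libraries, whereas after talazoparib, at 22.8%, it was below all of them. Against the mean of the 3 DMSO libraries, the log2 ratios at 48 h were −0.49 and −1.46 in place of −1.16 and −2.13. *SLFN12* had 11, 7 and 35 counts with DMSO, 7, 10 and 5 after olaparib and 5, 3 and 4 after talazoparib. Its log2 ratios at 48 h were −2.54 (−4.25 to −1.18) and −2.68 (−4.63 to −1.19), and the intervals of the other 4 ratios included 0. *SLFN12* passed the filter of 10 counts with 3 of 9 libraries, 2 of them with DMSO, so a lower level after the inhibitors was favoured before the comparison.

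**Figure D2:**
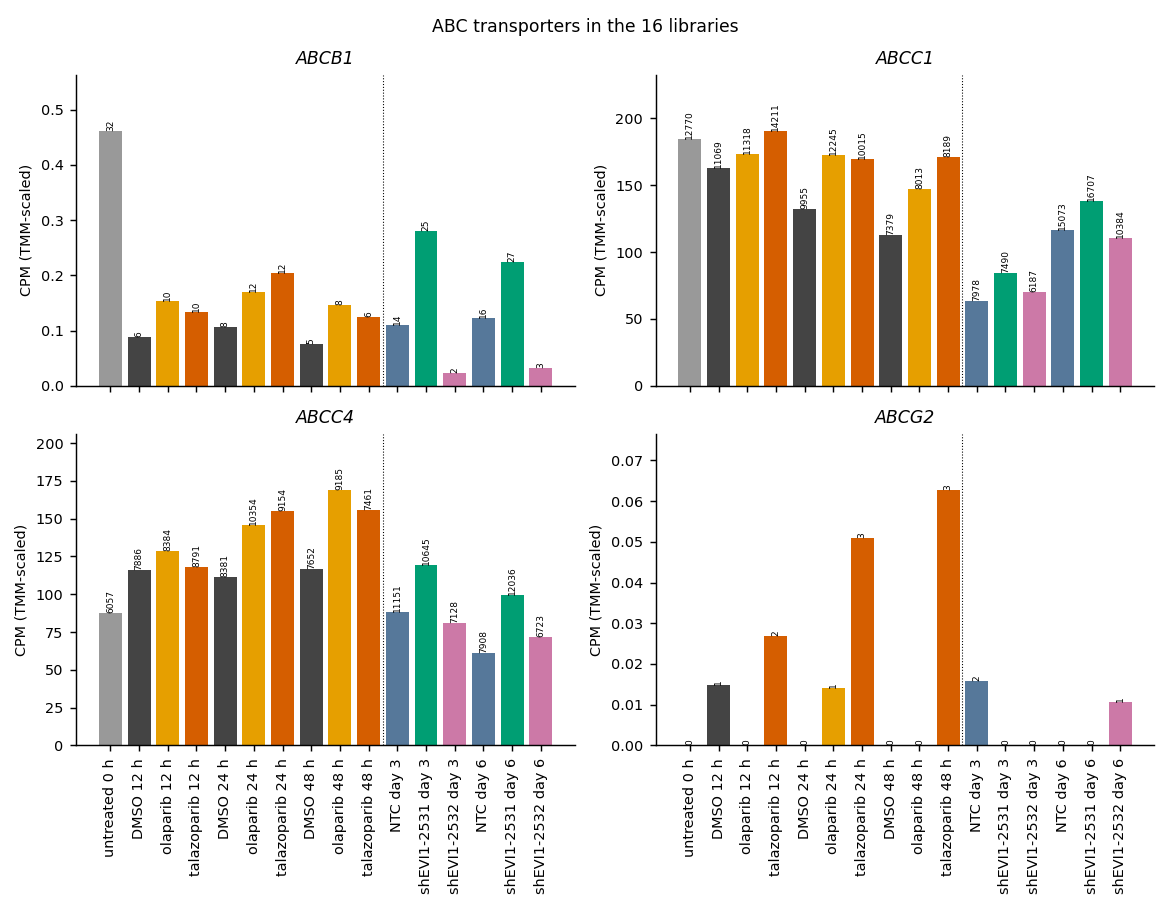
Level of each ABC transporter in CPM after TMM scaling (vertical axis, from 0), with 1 bar per library and its raw count above it; the dotted line separates the PARPi from the knockdown experiment. *ABCC1* and *ABCC4* stay between 61.0 and 191 CPM in the 16 libraries, whereas *ABCB1* and *ABCG2* rest on at most 32 and 3 counts.

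For *ABCC1* and *ABCC4* no ratio to DMSO passed 1 on the log2 scale. *ABCC1* was lower at later times in DMSO, with 163 CPM at 12 h, 132 CPM at 24 h and 113 CPM at 48 h, and a log2 ratio of −0.53 (−0.58 to −0.49) between 48 and 12 h. It had 173, 173 and 147 CPM after olaparib and 191, 170 and 171 CPM after talazoparib, so the ratio to DMSO of the same hour reached 0.39 and 0.60 on the log2 scale at 48 h. Against the mean of the 3 DMSO libraries these ratios were 0.12 and 0.33, and with library totals in place of TMM 0.20 and 0.34. *ABCC4* had 116, 111 and 117 CPM with DMSO, 128, 146 and 169 CPM after olaparib and 118, 155 and 156 CPM after talazoparib. All inhibitor libraries were above the DMSO range of 1.05-fold, that of talazoparib at 12 h only just (log2 ratio 0.02, −0.02 to 0.07). The log2 ratios at 48 h were 0.53 (0.49 to 0.57) and 0.42 (0.37 to 0.46). These intervals are narrow because each library holds at least 7379 counts of *ABCC1* and 7461 of *ABCC4*, and they say nothing of the spread between cultures.

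*ABCB1*, the exporter of both drugs, was barely expressed. It had 6, 8 and 5 counts with DMSO, 10, 12 and 8 after olaparib and 10, 12 and 6 after talazoparib, and 32 counts in the untreated library. The intervals of all 6 ratios to DMSO included 0. The gene passed the filter with 4 of 9 libraries, none of them with DMSO, so its presence among the tested genes depended on the inhibitor libraries. The untreated library was above DMSO at 12 h by 2.39 on the log2 scale (1.11 to 3.94).

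**Figure D3:**
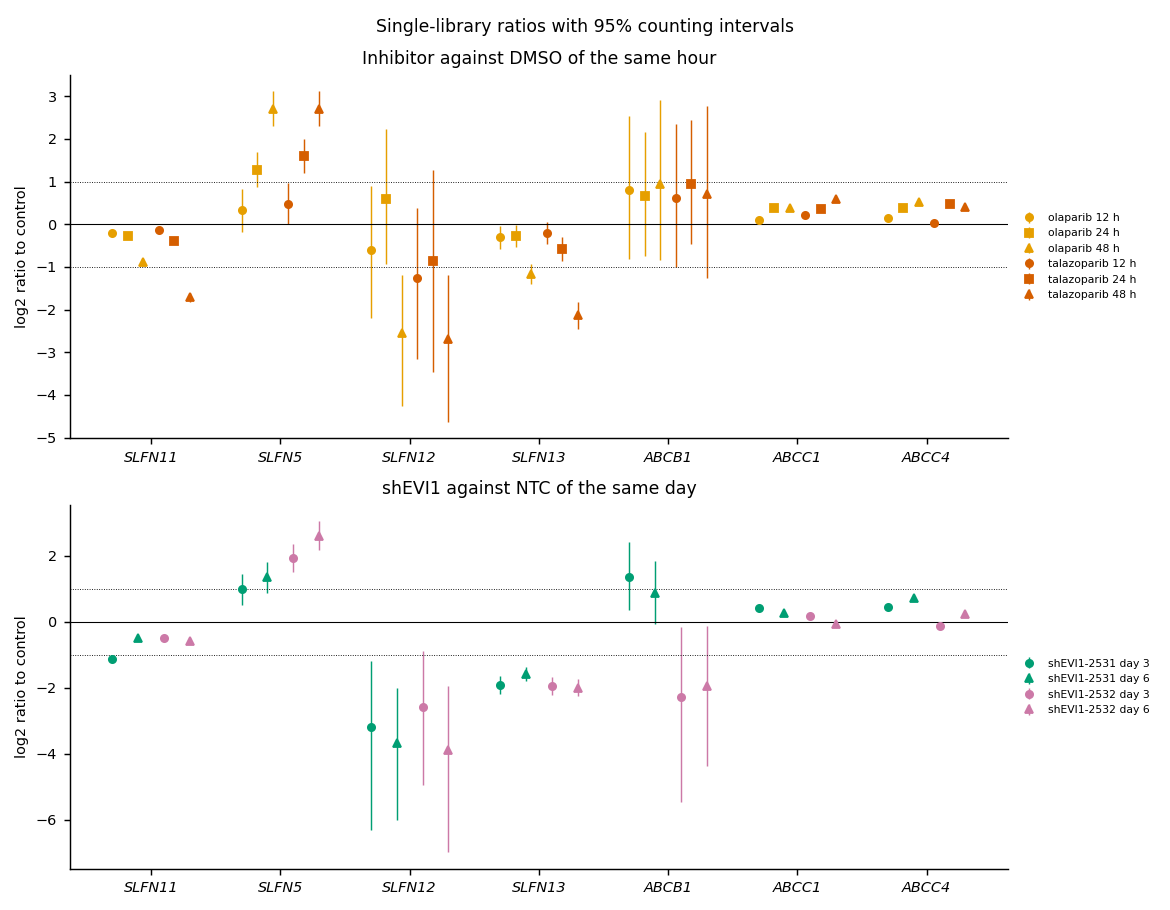
Log2 ratio of each inhibitor library to DMSO of the same hour (upper panel) and of each shEVI1 library to NTC of the same day (lower panel) for the 7 members with enough counts. Points are single libraries, bars are 95% intervals that cover counting error only, and dotted lines mark a ratio of 1 in either direction. *SLFN11* and *SLFN13* move further down and *SLFN5* further up from 12 to 48 h, and the *ABCB1* bars cross 0 in the upper panel.

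At 48 h, 3 of 7 members passed a log2 ratio of 1 after olaparib, beside 20.0% of all genes. *SLFN5* did so upward, as did 12.1% of all genes, and *SLFN12* and *SLFN13* downward, as did 7.93%. After talazoparib 4 of 7 did, beside 31.3% of all genes, with *SLFN5* upward (16.7% of all genes) and *SLFN11*, *SLFN12* and *SLFN13* downward (14.7%). At 24 h only *SLFN5* of the 7 passed, upward. All genes that passed at that time were 8.72% after olaparib (6.29% upward, 2.42% downward) and 12.9% after talazoparib (9.13% and 3.81%). At 12 h no member passed after olaparib, beside 5.11% of all genes (3.21% upward, 1.9% downward), and *SLFN12* passed downward after talazoparib, beside 5.16% (3.47% and 1.69%).

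Averaged over time points and both inhibitors, none of the 7 members passed the quasi-likelihood test of edgeR, adjusted after Benjamini-Hochberg (here the edgeR test), at an adjusted p under 0.05, beside 4.17% of all genes (3.16% higher, 1.01% lower). At an unadjusted p under 0.05 all 7 did, beside 35.1% of all genes, but *ABCB1* is among them only because the inhibitor libraries, where it is higher, took it past the filter. *SLFN12* passed the filter with 3 of 9 libraries, 2 of them with DMSO, so a lower level after the inhibitors was favoured. DESeq2 called 4, *SLFN11*, *SLFN13*, *SLFN5* and *ABCC1*, among 3474 genes in all. The log2 fold change of *SLFN5* was 1.47 (standard error 0.38, adjusted p = 0.0555, edgeR test). That of *SLFN11* was −0.61 (standard error 0.22, adjusted p = 0.0976), that of *SLFN13* −0.79 (0.28, 0.0876) and that of *SLFN12* −1.35 (0.48, 0.0937) in the same edgeR test. For *ABCC1* it was 0.34 (standard error 0.10, adjusted p = 0.0672), for *ABCC4* 0.33 (0.11, 0.0787) and for *ABCB1* 0.77 (0.32, 0.128), again in the edgeR test. Without the DMSO library of 12 h, 5 of 7 members were called, while the genes called in all rose from 718 to 4716. Without the 12 h libraries (3781 genes) or the talazoparib library of 12 h (3340 genes) 3 members were called, and without the 48 h libraries 1 was (1292 genes). Without the DMSO library of 48 h the effects shrank to −0.24 for *SLFN11* (adjusted p = 0.409, edgeR test), −0.33 for *SLFN13* (0.361) and −0.50 for *SLFN12* (0.600), and without the 48 h libraries that of *SLFN5* was 0.94. Taken singly, olaparib called 0 of 7 members (0.639% of all genes). At an unadjusted p under 0.05 it had 3 members beside 18.4% of all genes, and DESeq2 called 1 member among 669 genes. Talazoparib called 0 of 7 (4.0% of all genes), had 6 members at an unadjusted p under 0.05 beside 36.3% of all genes, and had 4 by DESeq2 among 3740 genes.

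The change of the inhibitor effect with time was the one PARPi comparison in which members passed the edgeR test. The slopes of both inhibitors on the log2 of hours were tested jointly, and 3 of 7 members passed, beside 16.5% of all genes (8.15% upward, 8.31% downward). *SLFN11* changed by −0.57 on the log2 scale for each doubling of time (standard error 0.13, adjusted p = 4.5e-05, edgeR test), the mean of both inhibitors. *SLFN5* changed by 1.15 (standard error 0.22, adjusted p = 2.0e-05, edgeR test) and *SLFN13* by −0.70 (standard error 0.17, adjusted p = 2.3e-04, edgeR test). The slopes of *SLFN12* (−0.89, standard error 0.51) and of *ABCB1*, *ABCC1* and *ABCC4* (0.07, 0.17 and 0.19) did not pass. The model had 2 residual degrees of freedom. Without the DMSO library of 48 h no slope of a member passed (adjusted p = 0.352 for *SLFN5*, 0.196 for *SLFN11* and 0.266 for *SLFN13*, edgeR test). The slopes of *SLFN11* and *SLFN13* shrank to −0.17 each, while that of *SLFN5* was 1.03. Without the talazoparib library of 48 h, those of *SLFN11* (−0.38, adjusted p = 0.161) and *SLFN13* (−0.51, adjusted p = 0.274) did not pass the edgeR test, and *SLFN5* did.

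Olaparib and talazoparib were given at different doses, so their values stand side by side. At 48 h *SLFN11* was lower after talazoparib than after olaparib, at 16.3 against 28.8 CPM, and so was *SLFN13*, at 1.98 against 3.89 CPM, whereas *SLFN5* had 6.16 and 6.14 CPM. Over the 3 time points the log2 difference of talazoparib to olaparib was −0.24 (standard error 0.26) for *SLFN11*, −0.32 (0.33) for *SLFN13*, 0.14 (0.38) for *SLFN5* and −0.82 (0.68) for *SLFN12*. For *ABCC1* it was 0.11 (standard error 0.12), for *ABCC4* −0.05 (0.12) and for *ABCB1* −0.03 (0.34). No member passed the edgeR test or DESeq2 in this comparison, none had an unadjusted p under 0.05, and 0.0% of all genes passed. Differences the size of these standard errors cannot be seen with 9 libraries.

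The second comparison asks what the loss of *EVI1* did. With both shRNAs *SLFN11*, *SLFN12* and *SLFN13* fell and *SLFN5* rose, in 4 of 4 pairs of libraries each. *SLFN12* passed the filter on low counts through NTC libraries alone, so its direction was set before the comparison. Of all 18606 genes tested, 49.2% had the same direction in the 4 pairs (24.9% higher, 24.3% lower), which share their NTC libraries. The transporters had no common direction. *ABCB1* was higher with shEVI1-2531 and lower with shEVI1-2532, and *ABCC4* passed the test with shEVI1-2531 and not with shEVI1-2532. Both shRNAs acted against the same NTC libraries, so their effects are not independent of each other.

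*SLFN11* had 40.1 CPM at day 3 and 37.3 CPM at day 6 with NTC. With shEVI1-2531 it had 18.4 and 26.3 CPM and with shEVI1-2532 28.5 and 24.9 CPM, so it was at 45.9%, 70.5%, 71.0% and 66.8% of NTC. The log2 fold change was −0.80 with shEVI1-2531 (standard error 0.19, adjusted p = 0.0132, edgeR test) and −0.53 with shEVI1-2532 (0.19, adjusted p = 0.0396). Its lowest level was thus with the shRNA that left more *MECOM*, at day 3, while the difference between the shRNAs, 0.26 (standard error 0.19), did not pass (adjusted p = 0.348, edgeR test). These calls are near the threshold. Without the NTC library of day 3 neither passed (−0.67, adjusted p = 0.101, and −0.40, adjusted p = 0.251, edgeR test), nor did shEVI1-2531 without its own library of day 3 (−0.48, adjusted p = 0.204) or shEVI1-2532 without its own library of day 6 (−0.35, adjusted p = 0.342).

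*SLFN13* fell most evenly. It had 5.77 and 6.22 CPM with NTC, 1.53 and 2.08 CPM with shEVI1-2531 and 1.5 and 1.56 CPM with shEVI1-2532, from 132 to 251 counts in the knockdown libraries against 728 and 806 with NTC. These values are 26.5%, 33.5%, 26.0% and 25.0% of NTC of the same day. The log2 fold change was −1.74 with shEVI1-2531 (standard error 0.24, adjusted p = 4.7e-04, edgeR test) and −1.97 with shEVI1-2532 (0.24, adjusted p = 5.2e-05, edgeR test). Both stayed past the threshold in each of the 15 alternatives run, leave-one-out fits included.

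*SLFN12* had 26 and 41 counts with NTC and 2, 3, 3 and 2 counts in the 4 knockdown libraries. With so few counts the log2 ratios, −3.20 and −3.67 with shEVI1-2531 and −2.59 and −3.89 with shEVI1-2532, have wide counting intervals, from −6.32 to −1.20 for the first and from −6.99 to −1.95 for the last. The fitted log2 fold changes were −3.40 (standard error 0.72, adjusted p = 0.00699, edgeR test) and −3.17 (0.72, adjusted p = 0.00414). *SLFN12* passed the filter on low counts with its 2 NTC libraries alone, so among tested genes it could only be one that was lower in the knockdown. Without the NTC library of day 6 neither shRNA passed (−2.91, adjusted p = 0.121, and −2.73, adjusted p = 0.0794, edgeR test), and without the shEVI1-2532 library of day 6 the effect of that shRNA was −2.61 (adjusted p = 0.0554, edgeR test).

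*SLFN5* had 0.531 and 0.432 CPM with NTC, 1.05 and 1.09 CPM with shEVI1-2531 and 2.0 and 2.60 CPM with shEVI1-2532. It was 1.97-fold and 2.53-fold higher with shEVI1-2531 and 3.77-fold and 6.02-fold higher with shEVI1-2532 at day 3 and day 6. The log2 fold changes were 1.15 (standard error 0.30, adjusted p = 0.0196, edgeR test) and 2.25 (0.30, adjusted p = 9.2e-05), and their difference, 1.10 (standard error 0.28), passed as well (adjusted p = 0.0147, edgeR test). The rise was thus larger with the shRNA that left less *MECOM*. The effect of shEVI1-2531 did not pass without its library of day 3 (1.14, adjusted p = 0.0625, edgeR test) or the NTC library of day 6 (0.90, adjusted p = 0.145, edgeR test). The difference between the shRNAs did not pass without the shEVI1-2531 library of day 6 (1.10, adjusted p = 0.0517) or the shEVI1-2532 library of day 6 (0.85, adjusted p = 0.203, edgeR test).

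**Figure D4:**
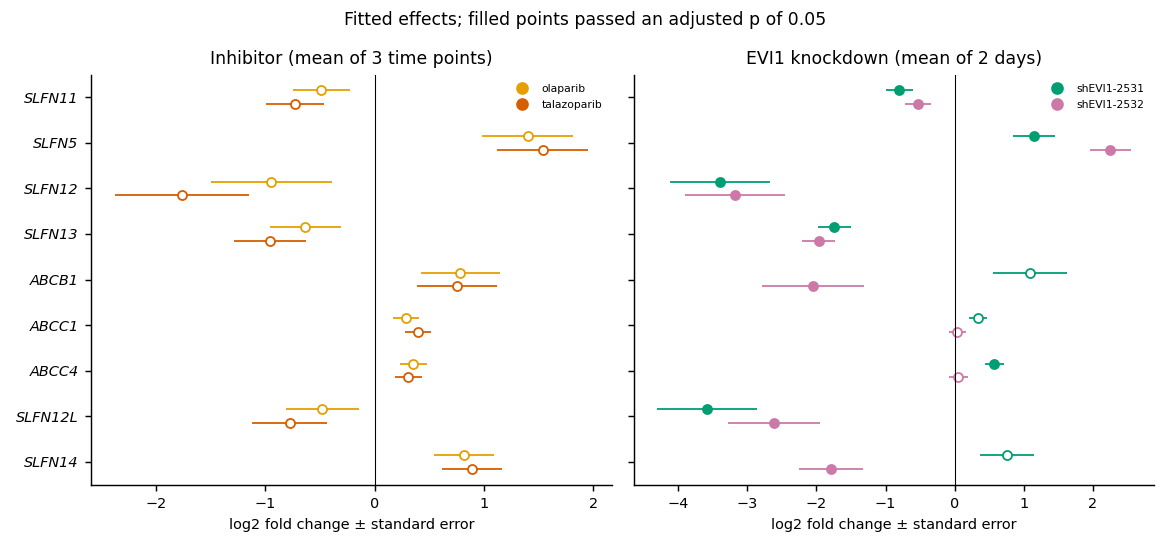
Fitted log2 fold changes with standard errors for the 7 tested members and for *SLFN12L* and *SLFN14*, after each inhibitor (left, mean of 3 time points) and with each shRNA (right, mean of 2 days). Filled points passed an adjusted p of 0.05 in the edgeR test. No point is filled on the left, and on the right *SLFN11*, *SLFN12*, *SLFN13* and *SLFN12L* are filled below 0 and *SLFN5* above 0 with both shRNAs. *SLFN12* and *SLFN12L* passed the filter on low counts through NTC libraries alone, so only a fall could be called for them.

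*ABCB1* moved in opposite directions with the 2 shRNAs. It had 14 and 16 counts with NTC, 25 and 27 with shEVI1-2531 and 2 and 3 with shEVI1-2532. With shEVI1-2531 the log2 ratios were 1.34 (95% counting interval 0.34 to 2.40) at day 3 and 0.86 (−0.09 to 1.85) at day 6. For shEVI1-2532 they were −2.28 (−5.47 to −0.16) at day 3 and −1.95 (−4.37 to −0.14) at day 6. The fitted effect of shEVI1-2531, 1.09 (standard error 0.54), did not pass (adjusted p = 0.193, edgeR test), that of shEVI1-2532, −2.05 (0.73), did (adjusted p = 0.0415), and their difference was −3.14 (standard error 0.70, adjusted p = 0.00666, edgeR test). The difference passed in each of the 13 alternatives with a value, whereas the effect of shEVI1-2532 did not pass with DESeq2 (adjusted p = 0.142) or without any single library of NTC or of that shRNA (adjusted p = 0.104 to 0.211, edgeR test). All of this rests on 2 to 27 counts a library, and *ABCB1* passed the filter of 10 counts through the NTC and shEVI1-2531 libraries alone, so that a lower level with shEVI1-2532 was favoured before the test.

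*ABCC4* had 88.3 and 61.0 CPM with NTC, 120 and 99.8 CPM with shEVI1-2531 and 81.1 and 71.6 CPM with shEVI1-2532. It rose with shEVI1-2531 by 0.57 on the log2 scale (standard error 0.14, adjusted p = 0.0137, edgeR test), while the value with shEVI1-2532 was 0.05 (0.14, adjusted p = 0.788), or −0.25 with library totals. The difference between the shRNAs was −0.52 (standard error 0.14, adjusted p = 0.0167, edgeR test). With library totals in place of TMM the effect of shEVI1-2531 was 0.40 and did not pass (adjusted p = 0.0615, edgeR test), nor did it without the NTC library of day 6 (0.42, adjusted p = 0.128) or the shEVI1-2531 library of day 6 (0.52, adjusted p = 0.0628). The difference did not pass without the shEVI1-2532 library of day 3 (adjusted p = 0.167, edgeR test) or the shEVI1-2531 library of day 6 (adjusted p = 0.0970, edgeR test).

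*ABCC1* had 63.2 and 116 CPM with NTC, 84.2 and 138 CPM with shEVI1-2531 and 70.4 and 111 CPM with shEVI1-2532. It thus differed more between days (a log2 ratio of 0.88 in NTC, with a 95% counting interval of 0.84 to 0.92) than between shRNAs. Its fitted effects were 0.33 (standard error 0.13, adjusted p = 0.101, edgeR test) and 0.04 (0.13, adjusted p = 0.825), the latter −0.26 with library totals, and neither passed.

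In the edgeR test 5 of 7 members passed with shEVI1-2531, 2 higher and 3 lower, beside 17.4% of all genes (9.49% higher, 7.9% lower). With shEVI1-2532 5 passed, 1 higher and 4 lower, beside 41.1% (21.2% and 19.9%). *SLFN12*, counted as lower with each shRNA here and in the single ratios below, entered through NTC libraries alone, so only a fall could be called. *ABCB1*, counted as lower with shEVI1-2532, entered through NTC and shEVI1-2531 libraries alone, which also favoured its difference between the shRNAs. For the mean of both shRNAs the 4 Schlafen genes passed (*SLFN12* having entered the test through NTC libraries alone) and no transporter did, beside 34.3% of all genes (17.3% higher, 17.0% lower), and *SLFN5*, *ABCB1* and *ABCC4* passed for the difference between the shRNAs, beside 24.2% (12.2% and 12.0%). The mean effect of *SLFN11* did not pass without the NTC library of day 3 (−0.53, adjusted p = 0.114, edgeR test), nor that of *SLFN12* without the NTC library of day 6 (adjusted p = 0.055, edgeR test). DESeq2 called 4, 4, 4 and 2 members in these comparisons, among 3426, 7028, 5926 and 4531 genes in all. Single ratios passed 1 on the log2 scale for 4 of 7 members with shEVI1-2531 at day 3, 1 upward and 3 downward, beside 19.5% of all genes (7.86% and 11.6%). At day 6 it was 3, 1 upward and 2 downward, beside 15.6% (7.28% and 8.35%). With shEVI1-2532 it was 4 in either direction on each day, beside 29.6% of all genes at day 3 and 29.0% at day 6.

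Of the other Schlafen genes, *SLFN12L*, which lies next to *SLFN13*, had 57 and 62 counts with NTC, 0 and 9 with shEVI1-2531 and 6 and 8 with shEVI1-2532. It fell with both shRNAs, by −3.58 (standard error 0.72, adjusted p = 0.00513) and −2.62 (0.66, adjusted p = 0.00777) on the log2 scale in the edgeR test, and at day 3 it was at least 13.4-fold lower with shEVI1-2531, taking 3 counts for its 0. Like *SLFN12* it passed the filter with NTC libraries alone, 5.67% of its 100-base runs occur in an overlapping gene on the other strand, and genes that overlap it had up to 165 counts, so its own counts are uncertain. *SLFN14* had 50 and 65 counts with NTC, 53 and 112 with shEVI1-2531 and 15 and 8 with shEVI1-2532. It fell with shEVI1-2532 (−1.79, standard error 0.46, adjusted p = 0.00853, edgeR test), and the difference between the shRNAs was −2.55 (standard error 0.46, adjusted p = 0.00191, edgeR test). *SLFNL1*, outside the cluster on chromosome 1, passed no test. In the PARPi experiment none of the 3 passed for the mean effect (−0.63, 0.85 and 0.17 for *SLFN12L*, *SLFN14* and *SLFNL1*) or for the change with time, and by unadjusted p under 0.05 *SLFN14* did for the first and *SLFNL1* for the second.

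The wider ABC family was tested with 28 further genes in the PARPi experiment and 29 in the knockdown, of 44 listed. For the mean PARPi effect 4 rose and none fell (beside 3.16% and 1.01% of all genes), with a median log2 fold change of 0.04 beside −0.01 over all genes. They were *TAP1*, which loads peptides for MHC class I (1.02, adjusted p = 0.0121), the cholesterol exporters *ABCA1* (1.04, adjusted p = 0.0279) and *ABCG1* (0.60, adjusted p = 0.0399), and *ABCA5* (1.41, adjusted p = 0.0381), all in the edgeR test. For the mean of both shRNAs 7 rose and 6 fell of 29 (beside 17.3% and 17.0% of all genes), with a median of −0.04 beside 0.00068 over all genes. *ABCA7* (1.14), *ABCA5* (1.76) and *TAP2* (0.64) had the smallest p among those that rose, and *ABCA6* (−2.37), *ABCA9* (−2.33), *ABCD4* (−0.61) and *ABCB6* (−2.35) among those that fell. The effect of the inhibitors changed with time for 7 of 28 (beside 16.5% of all genes), 5 upward and 2 downward, among them the exporters *ABCC2* (0.51 for each doubling of time) and *ABCC3* (0.71), both of subfamily C, which were named after their values were seen.

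Interferon-stimulated genes, to which *SLFN5* belongs by its known induction, did not move with it in the knockdown. Of 24 listed, 18 fell and none rose for the mean of both shRNAs (median −1.57 on the log2 scale, beside 0.00068 over all genes, of which 17.0% fell and 17.3% rose), with *OAS3* at −2.26, *OAS2* at −3.43 and *RSAD2* at −1.60. In the same libraries *SLFN5* rose. In the PARPi experiment the summed level of the 24 genes was 1091, 1220 and 2578 CPM with DMSO at 12, 24 and 48 h, 1175, 1927 and 5754 CPM after olaparib and 1310, 2912 and 5498 CPM after talazoparib. *SLFN5* had 0.927, 1.01 and 0.946 CPM with DMSO at these hours. For the mean PARPi effect the 24 genes had a median log2 fold change of 0.69, beside −0.0064 over all genes. In the edgeR test 2 of them rose and 0 fell, beside 3.16% and 1.01% of all genes. The effect of the inhibitors on 11 of the 24 genes changed upward with time, as for 8.15% of all genes. Whether interferon acts on *SLFN5* in these cells was not tested.

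Of 11 other genes tied to the response to PARP inhibitors, 1 was lower for the mean PARPi effect (beside 1.01% of all genes) and none higher. For 6 the effect changed downward with time (beside 8.31% of all genes) and for none upward, with *CHEK1* at −1.10, *WEE1* at −0.75 and *RIF1* at −0.61 for each doubling of time. With shEVI1-2531 3 fell (beside 7.9%), with shEVI1-2532 8 (beside 19.9%) and with the mean of both 8 (beside 17.0%, median −0.63), and none rose. *PARP1*, the target of the inhibitors, was at −0.91 (standard error 0.11, adjusted p = 5.4e-05, edgeR test) for the mean of both shRNAs. Among 9 tested regulators known for Schlafen or transporter genes, *FLI1*, an ETS factor, fell (−0.65, standard error 0.11, adjusted p = 9.4e-04, edgeR test), as did *EZH2* (−0.72, adjusted p = 0.002) and *HIF1A* (−0.43, adjusted p = 0.0298), and *IRF1* rose (0.80, adjusted p = 0.00223). Whether any of them acts on the members was not tested.

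Over the 10 ratios to DMSO or NTC, which share controls, *SLFN12* and *SLFN13* had the most similar profiles among the Schlafen members (Pearson r = 0.85), followed by *SLFN11* and *SLFN13* (0.72) and *SLFN11* and *SLFN12* (0.51). *SLFN5* ran against *SLFN11* (−0.61) and *SLFN13* (−0.64). *ABCB1* was nearest to *ABCC1* (0.67) and *ABCC4* (0.64). The values of *SLFN12* and *ABCB1* are uncertain. *SLFN12* had at most 10 counts in any inhibitor or shRNA library, and *ABCB1* had 2 to 27 counts in the libraries compared. The ratios of *SLFN12* and *SLFN13* at 48 h also share a DMSO library in which both were at their highest with DMSO (35 and 570 counts). Out of 8717 well-expressed genes (mean log2 CPM over 3 in each experiment), the closest profiles included *DDHD2* for *SLFN11* (r = 0.96), *RIT1* and *ENTPD1* for *SLFN5* (0.99 and 0.98), *IQGAP2* and *LRRFIP2* for *SLFN12* (0.95 and 0.95) and *ALMS1* and *SMC4* for *SLFN13* (1.00 and 0.99). For the transporters they were *MTCH1* and *RRP36* for *ABCB1* (0.97 and 0.97), *CTIF* and *LSP1* for *ABCC1* (0.94 and 0.93) and *ZNF189* and *RAB18* for *ABCC4* (0.97 and 0.97). These are the highest of many values over 10 points and are given as a description.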

How the data were processed

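RNA was sequenced as stranded mRNA libraries with 100-base paired reads, and the submitters' processing notes name STAR, Picard, featureCounts and GRCh38 without versions. The authors deposited raw counts per gene and TPM, which they computed over the span of each gene with introns. The raw counts were analysed, and the TPM only checked. Strand use in counting is not given in the sources used here. Genes with at least 10 counts in 3 of 9 PARPi libraries (17218 genes) or 2 of 6 knockdown libraries (18606 genes) were scaled by TMM within each experiment (the untreated library to DMSO of 12 h) and fitted with edgeR 4.0.16 in R 4.3.3 (quasi-likelihood test, Benjamini-Hochberg adjustment over all genes tested, threshold 0.05). Models held the time point or day as a factor and 1 coefficient per inhibitor or shRNA, with 4 and 2 residual degrees of freedom, and for time 1 slope per inhibitor on log2 hours (2 degrees of freedom, both slopes tested jointly, their mean printed). With 1 library per condition, p-values measure the departures of time points or days from the model, not the spread between cultures. These departures are shared across genes by edgeR, so a small p-value does not rest on the few degrees of freedom of a single gene. Single ratios carry exact binomial 95% intervals (scipy 1.17.1) for counting error only.

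Library totals of 55999673 to 120716213 counts set the precision. Exon lengths came from GENCODE annotation. All 8 members are named, with the other Schlafen genes, at most 4 further ABC transporters and 3 genes of other lists per direction and test by smallest p, and the 2 genes most correlated with each member (profiles of log2 ratios with a prior count of 2). The members and lists were chosen with earlier results of these data known. Alternatives were DESeq2 1.42.0, other scalings, no filter, other thresholds, models without time or day, both shRNAs as 1 group, the libraries of each shRNA alone, slopes on hours, the mean DMSO level, and each library or time point left out. The steps were tested on simulated data. Figures used matplotlib 3.10.9. The file names of the shEVI1-2531 libraries carry a different shRNA number, and the labels were followed. Some genes that the naming rule selects are not reported here.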

Additional observations from a re-analysis of the deposited data

Results flagged for a closer look

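In 7 cases an effect on a gene of these families differed between times or between shRNAs by the test of the difference itself (edgeR, quasi-likelihood, adjusted after Benjamini-Hochberg). The effect of PARP inhibition changed with each doubling of time by −0.57 for *SLFN11*, 1.15 for *SLFN5* and −0.70 for *SLFN13* on the log2 scale (adjusted p = 4.5e-05, 2.0e-05 and 2.3e-04, edgeR), and none of the 3 passed without the DMSO library of 48 h, where the values were −0.17, 1.03 and −0.17. Between the shRNAs (shEVI1-2532 minus shEVI1-2531) the log2 difference was 1.10 for *SLFN5*, −3.14 for *ABCB1*, −0.52 for *ABCC4* and −2.55 for *SLFN14* (adjusted p = 0.0147, 0.00666, 0.0167 and 0.00191, edgeR). The *ABCB1* value rests on 2 to 27 counts a library, and the gene passed the filter through NTC and shEVI1-2531 libraries alone, which favoured this difference. *MECOM* differed by −1.70 in the same direction as the last 3. Against NTC, however, *MECOM* fell with shEVI1-2531 (−1.34), while *ABCB1*, *ABCC4* and *SLFN14* were at 1.09, 0.57 and 0.76, of which only *ABCC4* passed the edgeR test. What sets these differences was not tested.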

How the results depend on the processing

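Of 1075 refits of single members, 949 kept direction and side of the threshold, 51 lost and 47 gained a call, and 28 changed sign, none past the threshold. Of 252 single ratios 43 moved beyond their counting interval. Counts of members called moved as follows. For the mean PARPi effect it was 4 with DESeq2 (3474 genes called in all), 3 without the filter on low counts (3728 genes) and 0 to 5 in leave-one-out fits, with 5 (4716 genes) without DMSO at 12 h. For olaparib it was 1 with DESeq2, 1 without the filter and 0 to 2 in leave-one-out fits, and for talazoparib 4, 4 and 0 to 5. The change with time called 3 members and 0 to 3 in leave-one-out fits, with 0 (610 genes) without DMSO at 48 h. The 5 members called with shEVI1-2531 were 2 to 5 in leave-one-out fits, 2 without the day in the model (565 genes), 2 at an adjusted p of 0.01 and 3 with a log2 fold change beyond 1. The 5 with shEVI1-2532 were 2 to 5, 3 and 3 for the first 3 of these settings, and the 3 for the difference 1 to 3, 1 and 1. The mean of both shRNAs called 4 members, and 2 (308 genes) with both as 1 group.

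Signs changed for small values, mostly in leave-one-out fits. In these fits talazoparib against olaparib ran from −0.21 to 0.059 for *ABCB1* (0.000594 with upper-quartile scaling), −0.13 to 0.039 for *ABCC4*, −0.082 to 0.52 for *SLFN5*, −0.50 to 0.084 for *SLFN11* and −0.66 to 0.050 for *SLFN13*, the positive values of the last 2 without talazoparib at 48 h. The change with time ran from −0.14 to 0.25 for *ABCB1* (−0.032 with library totals) and from −2.62 to 0.95 for *SLFN12*, the last without DMSO at 48 h. The effect of shEVI1-2532 ran from −0.10 to 0.21 for *ABCC4* (−0.25 with library totals) and from −0.056 to 0.14 for *ABCC1* (−0.26 with library totals). The mean of both shRNAs became −0.049 for *ABCC1* with library totals and 0.26 for *ABCB1* with both as 1 group. The difference between shRNAs ran from −0.054 to 0.61 for *SLFN11* and from −0.37 to 0.81 for *SLFN12*. The cause of these changes was not tested.

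Library totals in place of TMM shifted the median ratio by −0.19 and −0.27 after olaparib and talazoparib at 48 h, and by −0.17 to −0.35 with the shRNAs, on the log2 scale. Inhibitor and DMSO libraries of the same hour, and shRNA and NTC libraries of the same day, were paired in the models by the time point or day. The labels give no replicate numbers to pair by. Depth limits *ABCG2*, with at most 3 counts a library, and *SLFN12* and *ABCB1*, with at most 41.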

Other observations

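The untreated library, which shares its time with no other library, stood apart from the DMSO libraries for some members. It had 32 counts of *ABCB1* against 5 to 8 with DMSO, and 22 counts of *SLFN5* against 62 to 76. Its *SLFN11* level, 44.2 CPM, was below the 51.0 to 53.4 CPM with DMSO. Its *ABCC4* level, 87.5 CPM, was below the 111 to 117 CPM with DMSO, and its *ABCC1* level, 184 CPM, was above the 113 to 163 CPM with DMSO. With a single library these values cannot be told apart from differences between cultures.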
